A study of Drosophila melanogaster with 8 samples.

Results

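Cuticle protein genes were examined in RNA-seq libraries of adult Drosophila melanogaster females, made from cuticle that kept its fat body. The genes were chosen by name alone, as every row of the deposited tables whose symbol starts with Cpr, Lcp, Ccp or Edg followed by a digit, starts with Twdl, or is Pcp. The rule found 124 of 17411 genes, made up of 70 Cpr, 26 Twdl, 17 Lcp, 7 Ccp and 3 Edg genes and Pcp, of which 3 are annotated as pseudogenes (Lcp1Psi, Lcp65APsi and TwdlU). The 9G8 RNAi group (n = 4) carried yolk-Gal4 and a 9G8-RNAi construct, a hairpin against the splicing factor 9G8, and the control group (n = 4) had the genotype yolk-Gal4/w1118 and no hairpin. All flies were females 1 week old, and both groups carried the yolk-Gal4 driver, which takes its name from the yolk protein genes expressed in the female fat body. Since no control carried a hairpin, silencing, the transgene insertion and the genetic background cannot be told apart. Nothing in the labels states that replicate libraries stem from independent fly cultures, so each p-value rests on a spread that may be technical.

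Insect cuticle is a layered matrix of chitin fibres and proteins that epidermal cells secrete toward the outside. Most of its proteins carry the Rebers-Riddiford domain, which binds chitin. This group holds the Cpr genes, the Ccp genes and the Lcp genes first described from larval cuticle. It also holds the ecdysone-dependent genes Edg78E and Edg84A and the pupal cuticle protein gene Pcp. The Tweedle proteins, encoded by the Twdl genes, are a separate family that also shapes the body cuticle. Many of these genes lie in tandem arrays, and most are known for bursts of expression around moults, when a new cuticle is laid down. Adult flies no longer moult, and the epidermis under the adult cuticle goes on adding matrix for some days after eclosion.

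The libraries held 25396063 to 36181492 counts in 9G8 RNAi and 27946556 to 34750635 counts in control, and no pair of libraries held identical counts. The cuticle protein genes took 0.218% to 0.364% of a library's counts in 9G8 RNAi and 0.278% to 0.359% in control. The targeted gene, x16 (the FlyBase symbol of 9G8), stood at 198.6, 34.7, 103.1 and 49.5 CPM (counts scaled to a common library size) in 9G8 RNAi libraries 1 to 4, against 60.4, 65.6, 325.5 and 145.1 CPM in control libraries 1 to 4. These groups overlap, with a log2 fold change of -0.63 (SE 0.63) and an adjusted p of 0.862 in edgeR's quasi-likelihood test. The bulk level of x16 thus does not separate the genotypes, and directions below are those between the labelled genotypes. Summed germline markers stood at 488, 144, 199 and 105 CPM in 9G8 RNAi libraries 1 to 4. In control libraries 1 to 4 they stood at 4.90, 54.1, 607 and 369 CPM. Control 3, 9G8 RNAi 1 and control 4 were the highest for both x16 and this sum. The part of germline RNA in the level of x16 was not tested. Summed fat body markers ran from 11971 to 20443 CPM in 9G8 RNAi and from 6703 to 10647 CPM in control, so the labelled tissue is present in every library. Every 9G8 RNAi library lay above every control library in this sum. The part of this difference in the results below was not tested. In bulk tissue, fewer cells of a type and less RNA per cell cannot be told apart.

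Few of the cuticle protein genes were expressed in these libraries. All came from flies of the same age and the same tissue preparation, and the share of epidermal RNA was not measured, so the low number cannot be tied to age. With a mean of at least 1 CPM taken as expressed, 19 of the 124 passed in 9G8 RNAi and 19 in control (15.3% each), against 49.8% of all genes in 9G8 RNAi and 49.2% in control. A total of 17 genes passed in both genotypes and 21 in at least one. Lcp3 and Ccp84Ag passed in 9G8 RNAi and not in control, and Cpr49Ac and Cpr100A passed in control and not in 9G8 RNAi. Of these 4, Cpr49Ac alone passed the test between the genotypes described below. In 9G8 RNAi the gene just inside the threshold was Cpr67Fb (1.08 CPM) and the one just outside it Cpr78E (0.796 CPM), and in control they were Cpr66D (1.05 CPM) and Lcp3 (0.953 CPM).

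By the CPM threshold, the expressed set was almost wholly made of Cpr genes. Of the 70 Cpr genes, 16 were expressed in 9G8 RNAi and 18 in control, and Pcp was expressed in both genotypes. Of the 17 Lcp genes, 1 passed in 9G8 RNAi and 0 in control, and the same counts held for the 7 Ccp genes. None of the 3 Edg genes and none of the 26 Twdl genes reached a mean of 1 CPM in either genotype. The highest count of a Twdl gene in any library was 46, for TwdlT in control 2, and the 26 genes held 608 counts over all 8 libraries, against 774781 counts for the Cpr genes.

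The 103 genes below the threshold were scarce by count. The threshold is on CPM, which is not corrected for gene length. Short genes reach it less readily, which also bears on the shares above. The most abundant was Cpr78E, with 18 to 32 counts in every library, and none of the 103 exceeded 46 counts in a library, 47 held 1 to 10 counts over the 8 libraries together, and 6 held 0 counts in every library. A floor of 3 counts corresponds to 0.0647 to 0.156 CPM in 9G8 RNAi libraries and to 0.0839 to 0.119 CPM in control libraries, for counting error only. The 6 genes at 0 were Cpr57A, Lcp65APsi and 2 pairs of numbered copies, Lcp65Ab1 with Lcp65Ab2 and Cpr65Ax1 with Cpr65Ax2. How reads that match both members of such a pair were counted is not given in the sources used here, so a 0 for them is uncertain. The low counts of other numbered copies (Lcp65Ag1, Lcp65Ag2 and Lcp65Ag3, and Cpr67Fa1 with Cpr67Fa2) are uncertain wherever their reads match another copy as well.

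By position, 90 of the 124 genes sit in 15 genomic clusters, where a cluster holds at least 3 of these genes, each within 20 kb of the next on the same chromosome arm, and 34 lie outside. Positions are given on the genome build BDGP6, as in the deposited tables. The genes divide into 47 on 3L, 34 on 3R, 28 on 2R, 8 on X and 7 on 2L. The expressed genes number 9 on 2R, 8 on 3L, 3 on 3R, 1 on 2L and 0 on X, and 13 of the 21 are in clusters. At least 1 expressed gene was found in 8 of the 15 clusters.

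**Figure D1:**
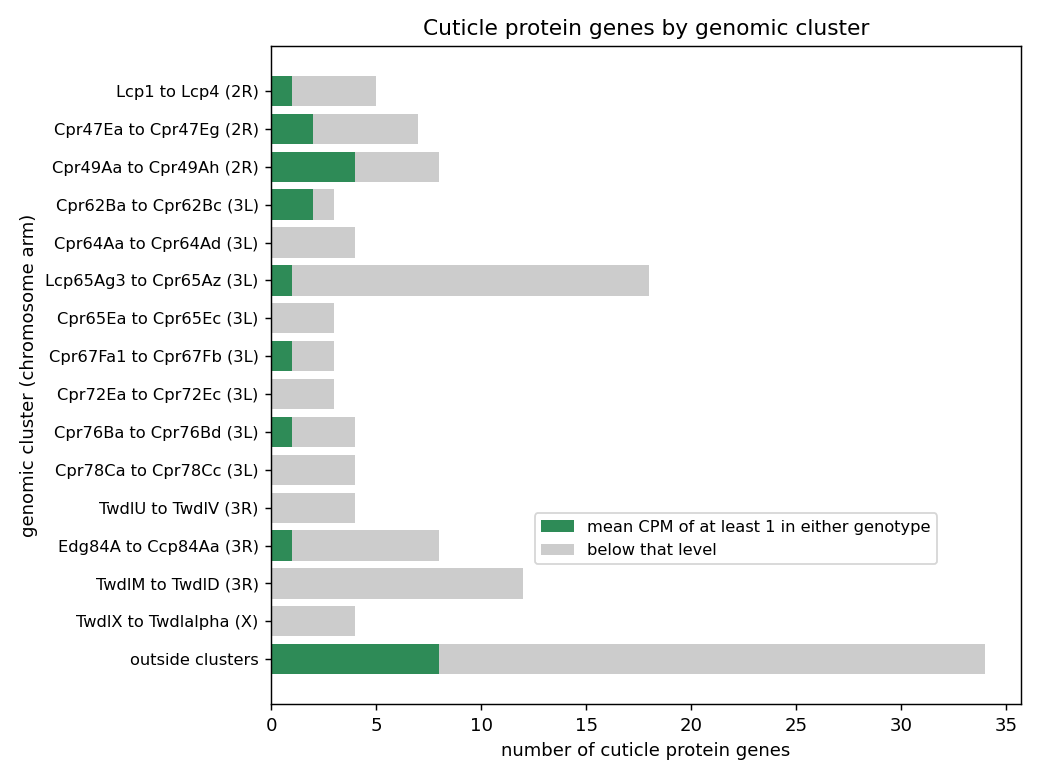
Number of cuticle protein genes (horizontal axis) in each of 15 genomic clusters and outside them (vertical axis, with chromosome arm); green marks genes with a mean of at least 1 CPM in either genotype and grey the rest. The Cpr49A cluster has the most expressed genes (4 of 8), the cluster at 65A has 1 of 18, and all 20 Twdl genes in clusters are grey.

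The Cpr49A cluster spans 38.5 kb of 2R, from 12376626 to 12415170, and holds 8 genes, Cpr49Aa to Cpr49Ah. It was the most active of the clusters, with Cpr49Aa, Cpr49Ab, Cpr49Ac and Cpr49Ae expressed, and it held 91.1% of all counts of cuticle protein genes in 9G8 RNAi and 92.1% in control. The Cpr47E cluster (7 genes, 2R, 11251751 to 11278445) had Cpr47Ea and Cpr47Ef expressed, and the Cpr62B cluster (3 genes, 3L, 1824129 to 1842084) had Cpr62Ba and Cpr62Bb. These 3 clusters were the only ones with more than 1 expressed gene.

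The 5 other active clusters had 1 expressed gene each. The largest of all clusters is the mixed Lcp65A and Cpr65A array of 18 genes on 3L, from 6130386 to 6161589. Only Cpr65Au reached the threshold in it, with the counts of the array's numbered copies uncertain, as stated above. Cpr67Fb was expressed in its cluster of 3 (3L, 10889990 to 10894693), and Cpr76Bd in its cluster of 4 (3L, 19517552 to 19538289). In the array of larval cuticle genes Lcp1 to Lcp4 (5 genes, 2R, 8430115 to 8438495) Lcp3 passed in 9G8 RNAi, and in the array of Edg84A and the Ccp84A genes (8 genes, 3R, 6684445 to 6704903) Ccp84Ag passed in 9G8 RNAi.

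The 7 clusters with no expressed gene included the 3 Tweedle clusters, of 12 genes on 3R (26619118 to 26641054), 4 genes on 3R (4243606 to 4255833) and 4 genes on X (16731091 to 16744365). No gene of the Tweedle cluster of 12 exceeded 9 counts in a library. The other clusters with none expressed were Cpr64A, Cpr65E and Cpr72E and the cluster of the Cpr78C genes with Edg78E, all on 3L. Outside the clusters, the 8 expressed genes were Pcp, Cpr51A, Cpr60D, Cpr66D, Cpr67B, Cpr73D, Cpr97Eb and Cpr100A.

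A single gene supplied most of the cuticle protein RNA. Cpr49Ab (FBgn0050042, 2R, 12378440 to 12379396, plus strand) took 87.1% to 91.6% of the counts of the 124 genes in 9G8 RNAi libraries and 70.4% to 81.1% in control libraries. Its level in RPKM, the CPM divided by the length of its exons in kilobases, was 2846, 1448, 4371 and 4391 in 9G8 RNAi libraries 1 to 4, against 4097, 3350, 2571 and 2177 RPKM in control libraries 1 to 4. The control range lies wholly inside the 9G8 RNAi range, and the gene ranked 73 among all genes by mean RPKM. For scale, the median over all genes with a mean of at least 1 CPM was 4.70 RPKM.

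Below Cpr49Ab the expressed genes spread over more than 3 orders of magnitude of RPKM, as the plot of the expressed genes by library shows. Only 4 had a mean over the 8 libraries of at least 100 RPKM (Cpr49Ab, Cpr49Aa, Cpr65Au and Cpr67B), and 8 had at least 10 RPKM. By the same mean, Cpr78E (1.71 RPKM, 463 bases), below the CPM threshold, stood above expressed genes such as Cpr76Bd (0.376 RPKM, 4525 bases). Edg91 (0.649 RPKM) and TwdlBeta (0.532 RPKM), also below the threshold, stood above Cpr76Bd too. In 9G8 RNAi, Cpr65Au (112 to 333 RPKM) and Cpr67B (51.5 to 158 RPKM) came next after Cpr49Ab, and their ranges overlap. In control, Cpr49Aa (513 to 893 RPKM) was second and apart from Cpr49Ab above it and from Cpr65Au (94.9 to 147 RPKM) and Cpr67B (82.7 to 190 RPKM) below it, while Cpr65Au and Cpr67B again overlapped each other. From Cpr62Bb through Cpr60D and Cpr49Ae to Cpr51A, each gene overlapped the next in both genotypes, except that Cpr60D lay above Cpr49Ae in control.

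**Figure D2:**
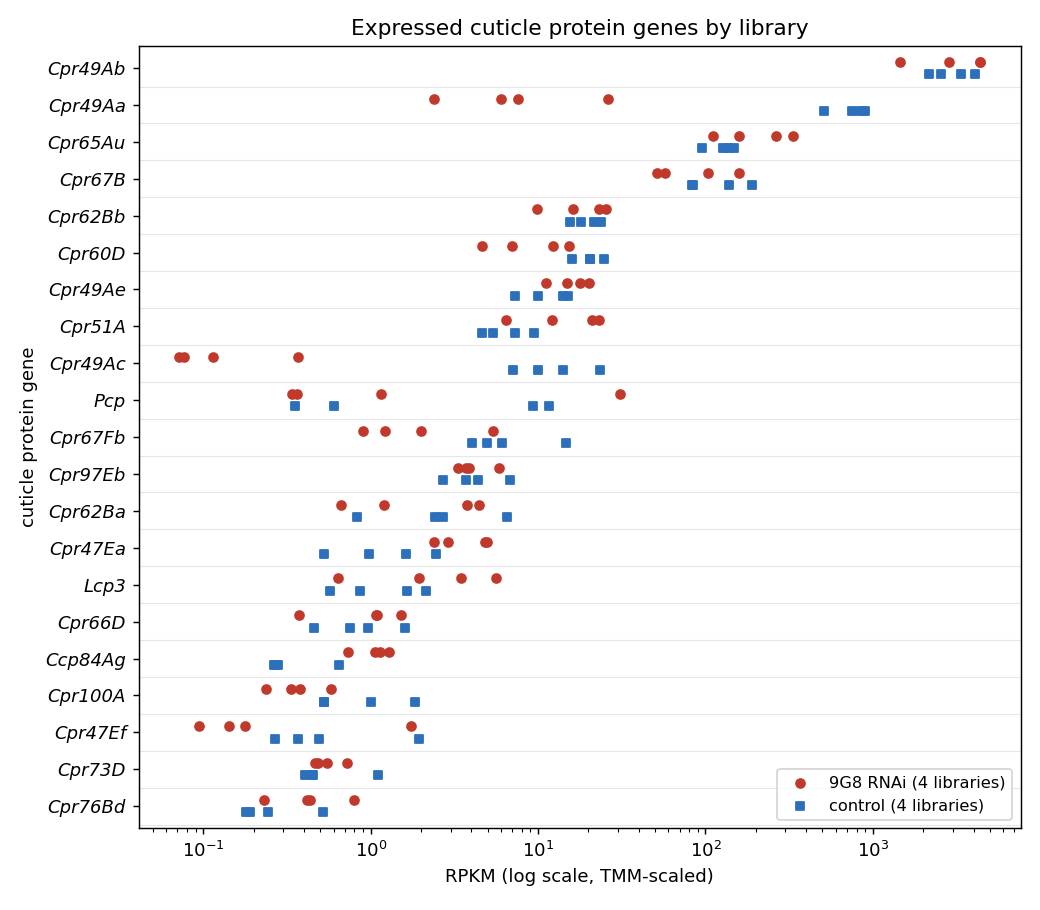
RPKM on a log scale (horizontal axis) of the 21 expressed cuticle protein genes, ordered by mean over the 8 libraries (vertical axis); red circles are the 4 9G8 RNAi libraries and blue squares the 4 control libraries. Cpr49Ab lies between 1448 and 4391 RPKM in all 8 libraries, while the red points of Cpr49Aa and Cpr49Ac lie far to the left of their blue points.

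Between the genotypes, the level of 2 cuticle protein genes fell in 9G8 RNAi and none rose. They were Cpr49Aa and Cpr49Ac, the 2 genes on either side of Cpr49Ab in the Cpr49A cluster. By the fitted log2 fold change they were 71.9-fold and 92.9-fold lower in 9G8 RNAi than in control. Cpr49Ab itself did not pass the test. After the low-count filter, 29 of the 124 genes could be tested (23.4%, against 56.6% of all genes), 27 of them did not pass, and 95 were not tested. The filter kept genes with enough counts in at least 4 of the 8 libraries, so the 29 do not stand for the 124.

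Set against the background, 2 of 29 is 6.90% lower, where 2.21% of all 9846 tested genes were lower, 0.995% were higher and 3.21% changed in either direction (edgeR quasi-likelihood test, Benjamini-Hochberg adjusted p under 0.05). The genotypes did not overlap in RPKM for 6 of the 29 (20.7%), against 8.73% of all tested genes. Of these 6, 4 were lower in 9G8 RNAi (Cpr49Aa, Cpr49Ac, Cpr60D and Lcp1) and 2 were higher (Ccp84Ag and Cpr92F), against 5.78% lower and 2.96% higher over all tested genes. An unadjusted p under 0.05 was reached by 8 of the 29 (27.6%, with 5 lower and 3 higher), against 12.9% of all tested genes. The median log2 fold change of the 29 was -0.11, with 17 negative and 12 positive, and the median of all tested genes was 0.01. Without control 2 the median of the tested cuticle protein genes was 0.295.

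**Figure D3:**
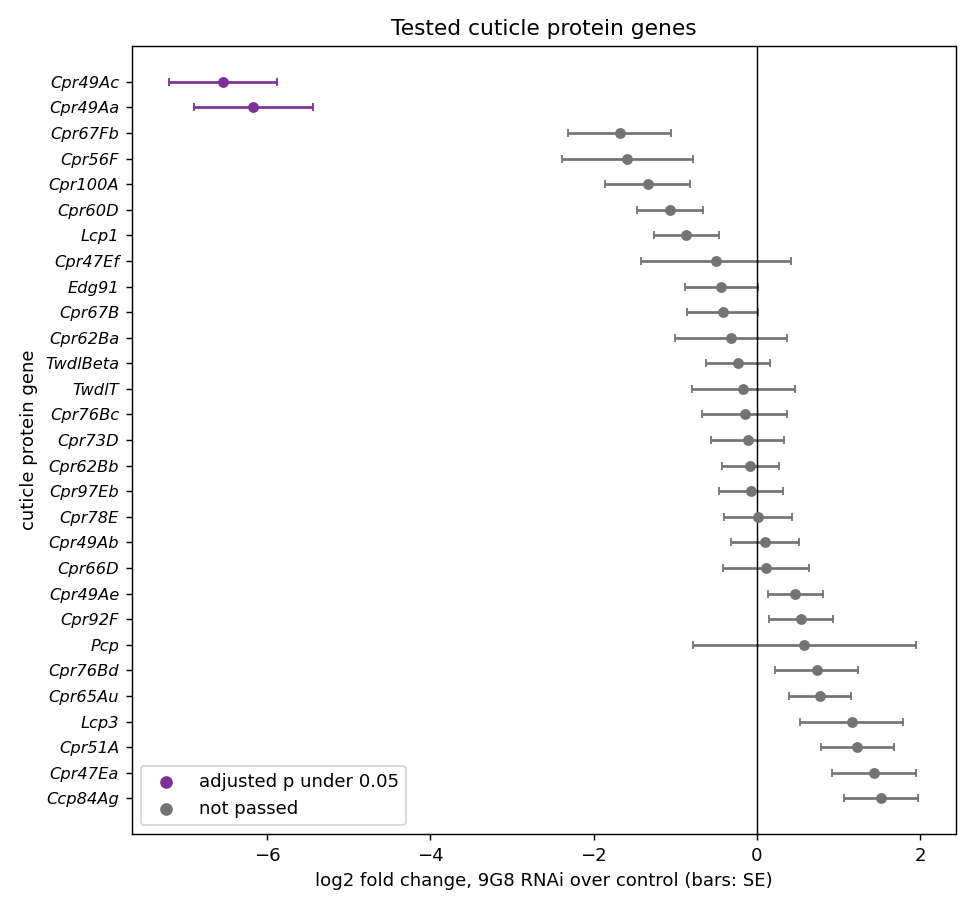
Log2 fold change, 9G8 RNAi over control, of the 29 tested cuticle protein genes (horizontal axis, points with bars of 1 SE), ordered by value; purple marks an adjusted p under 0.05 and grey the genes that did not pass. Cpr49Ac at -6.54 and Cpr49Aa at -6.17 stand apart from the other 27, which lie between -1.68 (Cpr67Fb) and 1.52 (Ccp84Ag).

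Cpr49Aa (FBgn0050045, 2R, 12376626 to 12377378, plus strand) stood at 7.58, 2.40, 5.98 and 26.0 RPKM in 9G8 RNAi libraries 1 to 4, against 893, 748, 513 and 844 RPKM in control libraries 1 to 4. Every 9G8 RNAi library lay far below every control library, and 9G8 RNAi 4 was the highest of its group. The mean was 10.5 ± 10.6 RPKM in 9G8 RNAi and 749.6 ± 168.7 RPKM in control (SD, n = 4 each). The log2 fold change was -6.17 (SE 0.73, edgeR adjusted p = 0.00133). The raw counts behind it were 647 over the 4 9G8 RNAi libraries and 52494 over the 4 control libraries.

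Cpr49Ac (FBgn0033725, 2R, 12386666 to 12390057, plus strand) stood at 0.114, 0.0713, 0.0771 and 0.368 RPKM in 9G8 RNAi libraries 1 to 4, against 14.0, 10.05, 7.10 and 23.6 RPKM in control libraries 1 to 4. The groups are again far apart, and 9G8 RNAi 4 is again the highest of its group. The log2 fold change was -6.54 (SE 0.66, edgeR adjusted p = 6.01e-04). It rests on 37 counts in the 4 9G8 RNAi libraries together and 3551 in the 4 control libraries. Of the 4 9G8 RNAi libraries, 9G8 RNAi 4 also had the highest Cpr49Ab level, by a narrow margin over 9G8 RNAi 3.

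The fourth expressed gene of the cluster, Cpr49Ae (2R, 12402216 to 12405108, plus strand), had 17.8, 20.3, 15 and 11.2 RPKM in 9G8 RNAi libraries 1 to 4, against 14.2, 15, 7.29 and 9.96 RPKM in control libraries 1 to 4. The groups overlap, with a log2 fold change of 0.47 (SE 0.34, edgeR adjusted p = 0.734). For Cpr49Ab the log2 fold change was 0.10 (SE 0.42, edgeR adjusted p = 0.973), with means of 3264 ± 1410 RPKM in 9G8 RNAi and 3049 ± 852 RPKM in control (SD, n = 4 each). The summed CPM of all cuticle protein genes but Cpr49Ab ran from 182.4 to 441.7 in 9G8 RNAi libraries and from 510.2 to 858.6 in control libraries.

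Set against Cpr49Ab in the same library, the level of Cpr49Aa was 0.266%, 0.166%, 0.137% and 0.592% of the Cpr49Ab RPKM in 9G8 RNAi libraries 1 to 4, against 21.8%, 22.3%, 19.97% and 38.8% in control libraries 1 to 4. This ratio does not depend on how libraries were scaled, and it separated the genotypes with a mean log2 difference of -6.66. For Cpr49Ac the difference of the log2 ratio was also -6.66, and for Cpr49Ae it was 0.48. An exact two-sided permutation test over the 70 assignments of 4 against 4 libraries gave p = 0.0286 for Cpr49Aa and Cpr49Ac, the smallest it can give, and 0.486 for Cpr49Ae (adjusted p = 0.0429, 0.0429 and 0.486 over these 3 genes). These genes were examined with the fall of Cpr49Aa and Cpr49Ac already known, so the ratio describes that fall and does not add to it.

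The fall was not limited to cuticle protein genes of the locus. In the cluster and its flanks of 40 kb on each side, 5 of 19 tested genes were lower in 9G8 RNAi. Over all tested genes the share was 2.21%. The 5 include Cpr49Aa and Cpr49Ac, for which the locus was chosen. The outermost of the 5, CG13160 (which starts at 12371594) and Cpr49Ac, bound a stretch of 18.5 kb with 7 genes. Of the 6 that could be tested there, only Cpr49Ab did not pass. The ends of this stretch were set by the genes that passed, so the share inside it is no separate result. The 3 that are not cuticle protein genes, CG13160, CG13155 and CG8501, were chosen after their values were seen, for their position, and have no product name in the tables used here. The 13 other tested genes of the cluster and its flanks of 40 kb on each side did not pass the test. Cpr49Ab lies between genes that fell, since Cpr49Aa ends 1061 bases before it starts and CG13155 lies 217 bases beyond its end on the opposite strand.

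**Figure D4:**
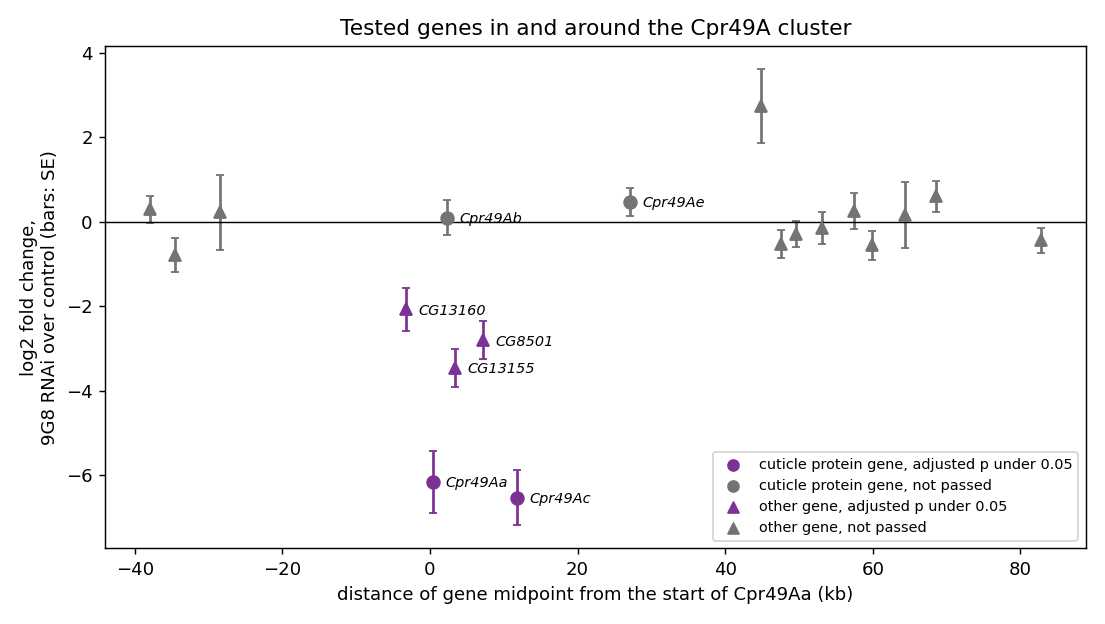
Log2 fold change, 9G8 RNAi over control, with bars of 1 SE (vertical axis), of the 19 tested genes in and around the Cpr49A cluster against the distance of the gene midpoint from the start of Cpr49Aa in kb (horizontal axis); circles are cuticle protein genes, triangles other genes, and purple marks an adjusted p under 0.05. The 5 purple points lie between CG13160 and Cpr49Ac, with Cpr49Ab near 0 among them and the 13 other tested genes grey.

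CG13155 (2R, 12379614 to 12380426, minus strand) had 19.6, 11.6, 26.5 and 41.9 RPKM in 9G8 RNAi libraries 1 to 4, against 346, 326, 230 and 198 RPKM in control libraries 1 to 4. The groups are apart, with a log2 fold change of -3.47 (SE 0.44, edgeR adjusted p = 0.00171). Its ratio to Cpr49Ab was steady within each genotype, at 0.606% to 0.955% of the Cpr49Ab RPKM in 9G8 RNAi libraries and 8.45% to 9.74% in control libraries. The strand setting of the counting is not given in the sources used here, and none of the genes of the cluster shares exon bases with another gene in the deposited coordinates.

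CG8501 (2R, 12383045 to 12384520, plus strand) averaged 4.59 ± 2.75 RPKM in 9G8 RNAi and 31.9 ± 7.04 RPKM in control (SD, n = 4 each), with groups apart and a log2 fold change of -2.81 (SE 0.45, edgeR adjusted p = 0.00528). CG13160 (2R, 12371594 to 12375081, plus strand) was scarce in both genotypes, at 0.206 ± 0.129 RPKM in 9G8 RNAi and 0.851 ± 0.296 RPKM in control, with a log2 fold change of -2.08 (SE 0.50, edgeR adjusted p = 0.0463). Its call is close to the threshold and was lost in 13 of 17 alternative settings, with adjusted p between 0.00325 and 0.196 over them. The calls of Cpr49Aa, Cpr49Ac, CG13155 and CG8501 were kept in all 17.

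**Figure D5:**
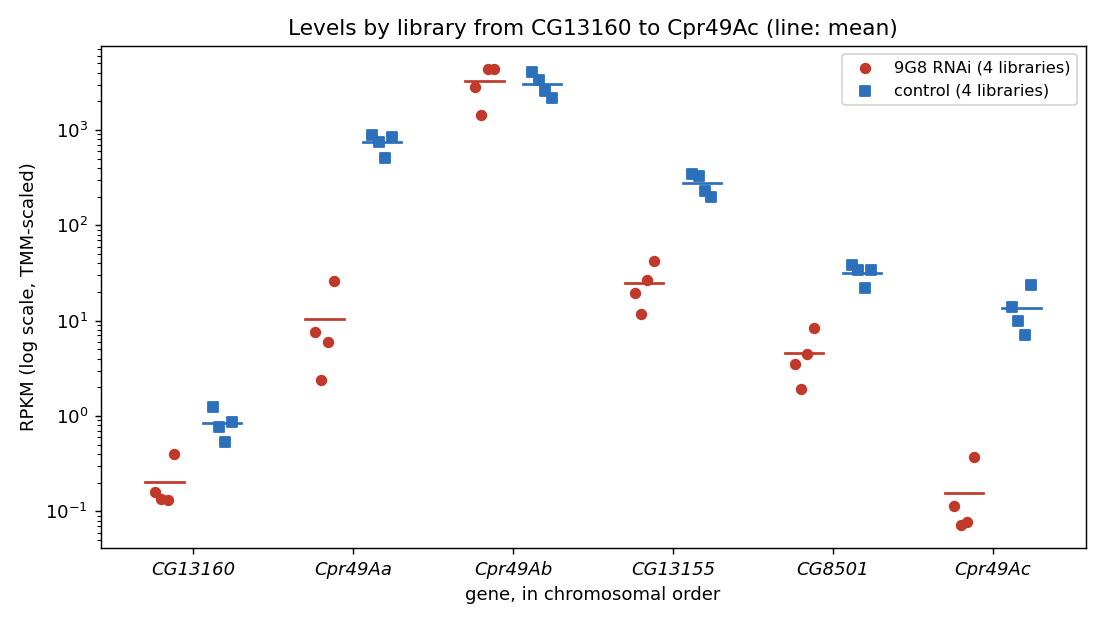
RPKM on a log scale (vertical axis) of the 6 tested genes from CG13160 to Cpr49Ac in chromosomal order (horizontal axis); red circles are the 4 9G8 RNAi libraries, blue squares the 4 control libraries and lines the group means. The groups overlap for Cpr49Ab, with means of 3264 RPKM in 9G8 RNAi and 3049 RPKM in control, and are apart for the other 5 genes, each with its highest 9G8 RNAi value in library 4.

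Markers of other cell types were compared beside this fall, and their part in it was not tested. All 8 tested hemocyte markers had negative log2 fold changes (median -1.25), with Pxn and He lower, where 2.21% of all tested genes were lower. Nplp2 made up 98.4% to 99.8% of their summed level, which ran from 7160 to 30404 CPM in 9G8 RNAi and from 27492 to 55941 CPM in control. Without Nplp2 the sum ran from 63.2 to 117.5 CPM in 9G8 RNAi and from 100.7 to 284.4 CPM in control, and these ranges overlap. Of the 14 tested gut markers, 3 were higher (deltaTry, thetaTry and lambdaTry), where 0.995% of all tested genes were higher, and the sum ran from 15952 to 41306 CPM in 9G8 RNAi and from 239 to 20860 CPM in control. Of the 8 tested fat body markers, Yp2 was higher and Lsp2 lower. Germline markers ran from 105 to 488 CPM in 9G8 RNAi and from 4.90 to 607 CPM in control, and eggshell markers from 43.3 to 8535 CPM in 9G8 RNAi and from 22.8 to 9102 CPM in control, with no gene of either list passing. Without 9G8 RNAi 1 and control 4, the libraries with the highest eggshell sum in each genotype, and without 9G8 RNAi 4 and control 3, the libraries with the highest and the lowest gut sum, Cpr49Aa and Cpr49Ac stayed lower.

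No gene of the lists for trachea (6 tested), muscle (13), oenocytes (4), spermatheca (4) and neurons and glia (6) passed the test. Their sums ran from 28.7 to 49.5 CPM in 9G8 RNAi and from 29.5 to 59.1 CPM in control for trachea, another tissue lined with cuticle. For muscle they were 844.5 to 1761 CPM in 9G8 RNAi and 866.9 to 1932 CPM in control, and for oenocytes 5282 to 10698 CPM in 9G8 RNAi and 3391 to 6626 CPM in control. Spermatheca markers ran from 6.79 to 407.6 CPM in 9G8 RNAi and from 73.8 to 305.7 CPM in control, and neuron and glia markers from 11.6 to 19.9 CPM in 9G8 RNAi and from 13.3 to 20.04 CPM in control. No marker in these lists was at 0 counts in every library.

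Among the abundant Cpr genes outside the Cpr49A cluster, none passed the test. Cpr65Au (FBgn0042119, 3L, 6131242 to 6132109) had 159, 112, 265 and 333 RPKM in 9G8 RNAi libraries 1 to 4, against 128, 147, 94.9 and 137 RPKM in control libraries 1 to 4. 9G8 RNAi 2 lay inside the control range and the other 9G8 RNAi libraries above it, for a log2 fold change of 0.78 (SE 0.38, edgeR adjusted p = 0.436). Cpr67B (3L, 9404797 to 9406174) averaged 92.6 ± 49.2 RPKM in 9G8 RNAi and 124 ± 51.4 RPKM in control (SD, n = 4 each), with overlapping groups and an edgeR adjusted p of 0.865. Cpr62Bb averaged 18.7 ± 7.12 RPKM in 9G8 RNAi and 19.8 ± 3.69 RPKM in control, and its log2 fold change of -0.08 (SE 0.35) changed sign when the 20 most abundant genes were left out of the scaling.

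Cpr60D (FBgn0050163, 2R, 24662682 to 24663406) had 6.997, 4.62, 12.3 and 15.3 RPKM in 9G8 RNAi libraries 1 to 4, against 24.8, 20.3, 15.9 and 20.4 RPKM in control libraries 1 to 4. The groups do not overlap, although 9G8 RNAi 4 and control 3 nearly meet, and the log2 fold change of -1.06 (SE 0.41) did not pass (edgeR adjusted p = 0.247). Cpr51A (FBgn0033942, 2R, 14512559 to 14515211) had 12.1, 6.46, 20.9 and 23.1 RPKM in 9G8 RNAi libraries 1 to 4, against 9.41, 5.40, 4.64 and 7.24 RPKM in control libraries 1 to 4. Only 9G8 RNAi 2 lay inside the control range, and the log2 fold change of 1.23 (SE 0.45) did not pass (edgeR adjusted p = 0.214).

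Cpr67Fb (FBgn0036110, 3L, 10894173 to 10894693) had 1.22, 0.897, 2 and 5.35 RPKM in 9G8 RNAi libraries 1 to 4, against 14.6, 6.11, 4.96 and 4.05 RPKM in control libraries 1 to 4. 9G8 RNAi 4 lay among the controls and the other 9G8 RNAi libraries below all of them, with a log2 fold change of -1.68 (SE 0.63, edgeR adjusted p = 0.235). Without 9G8 RNAi 4 the gene passed (log2 fold change -2.44, edgeR adjusted p = 0.0344), and its leave-one-out range of adjusted p reached 0.713. Its exons overlap those of CR45171 on the opposite strand, so with the strand setting unknown the reads of the 2 genes cannot be told apart.

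Cpr47Ea (2R, 11251751 to 11253398) averaged 3.77 ± 1.31 RPKM in 9G8 RNAi and 1.39 ± 0.835 RPKM in control (SD, n = 4 each), with a log2 fold change of 1.44 (SE 0.51, edgeR adjusted p = 0.202), and its exons overlap Or47a on the opposite strand. Cpr97Eb averaged 4.18 ± 1.12 RPKM in 9G8 RNAi and 4.40 ± 1.74 RPKM in control, and Cpr62Ba 2.52 ± 1.87 RPKM in 9G8 RNAi and 3.12 ± 2.41 RPKM in control. Cpr100A averaged 0.382 ± 0.144 RPKM in 9G8 RNAi and 0.974 ± 0.619 RPKM in control, with a log2 fold change of -1.34 (SE 0.52, edgeR adjusted p = 0.261). The 4 other expressed Cpr genes, Cpr66D, Cpr47Ef, Cpr73D and Cpr76Bd, were named after their values were seen, since they are expressed. They had means of 0.468 to 1.02 RPKM in 9G8 RNAi and 0.284 to 0.947 RPKM in control, and did not pass.

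Pcp, the pupal cuticle protein gene (FBgn0003046, 2L, 7021682 to 7022470), lies within the span of the purine synthesis gene ade3 and varied more between libraries than between genotypes. It had 0.337, 0.36, 31.0 and 1.16 RPKM in 9G8 RNAi libraries 1 to 4, against 0.606, 9.29, 0.351 and 11.7 RPKM in control libraries 1 to 4. The libraries 9G8 RNAi 3, control 2 and control 4 stood above all the others. The log2 fold change was 0.58 (SE 1.36, edgeR adjusted p = 0.953), and without 9G8 RNAi 3 it was -3.20.

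Among the Lcp and Ccp genes, low levels were measured and none passed. Lcp3 (2R, 8435310 to 8436095) had 3.445, 1.95, 5.63 and 0.641 RPKM in 9G8 RNAi libraries 1 to 4, against 0.866, 1.64, 2.15 and 0.572 RPKM in control libraries 1 to 4, and the groups overlap (log2 fold change 1.16, SE 0.63, edgeR adjusted p = 0.523). Lcp1, in the same array, averaged 0.211 ± 0.0284 RPKM in 9G8 RNAi and 0.390 ± 0.0687 RPKM in control, with groups apart on 31 counts in 9G8 RNAi and 50 in control (edgeR adjusted p = 0.392). Ccp84Ag (FBgn0004777, 3R, 6686728 to 6688039) had 1.06, 0.728, 1.28 and 1.14 RPKM in 9G8 RNAi libraries 1 to 4, against 0.649, 0.264, 0.281 and 0.272 RPKM in control libraries 1 to 4. All 4 9G8 RNAi libraries lay above all 4 controls, and the log2 fold change of 1.52 (SE 0.45) did not pass (edgeR adjusted p = 0.108).

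Among genes of cuticle assembly, hardening and regulation, 2 of 76 tested over 7 lists were lower and 0 higher (2.63%, against 3.21% of all tested genes changed in either direction). This share is near the background, and the lists were described by counts with no test of the list. Of 8 tested chitin synthesis genes, 1 was lower and 0 higher (median log2 fold change -0.13). The lower one was CS-2, known as the chitin synthase of the gut lining, at 12.6 ± 4.84 CPM in 9G8 RNAi and 44.5 ± 10.9 CPM in control (SD, n = 4 each), with a log2 fold change of -1.82 (SE 0.36, edgeR adjusted p = 0.0166). The epidermal chitin synthase gene kkv was too scarce to be tested, at 0.374 ± 0.190 CPM in 9G8 RNAi and 0.297 ± 0.107 CPM in control. CS-2 passed in 12 of 17 alternative settings, with adjusted p up to 0.0951.

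Of 11 tested genes of chitin organisation and deacetylation, 0 passed (median -0.03). The most abundant, obst-E, which encodes a chitin-binding protein, had 71.8 ± 34.8 CPM in 9G8 RNAi and 116 ± 30.3 CPM in control (edgeR adjusted p = 0.567). Of 16 tested chitinase and imaginal disc growth factor genes, 0 passed (median -0.01). Of 17 tested genes of tanning and pigmentation, 1 was lower (median -0.30), namely Pu, which encodes the first enzyme of pteridine synthesis, at 22.8 ± 10.3 CPM in 9G8 RNAi and 67.7 ± 19.4 CPM in control (log2 fold change -1.57, SE 0.38, edgeR adjusted p = 0.0439). The call of Pu was lost in 13 of 17 alternative settings, with adjusted p up to 0.198.

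No gene passed among 7 tested zona pellucida proteins of the apical matrix (median -0.16) or among 15 genes of the ecdysone response and cuticle regulators (median 0.02). Among those 15, the ecdysone receptor gene EcR had 10.4 ± 1.98 CPM in 9G8 RNAi and 6.81 ± 1.68 CPM in control (edgeR adjusted p = 0.517), and grh, which encodes an epidermal transcription factor, had 11.5 ± 1.87 CPM in 9G8 RNAi and 12.3 ± 2.73 CPM in control (edgeR adjusted p = 0.967). Of 10 cuticle proteins outside the name pattern, 2 could be tested and 0 passed (median 0.26). The more abundant of them, Acp65Aa, known from adult cuticle and located at 65A, had 19.3 ± 5.99 CPM in 9G8 RNAi and 11.9 ± 4.94 CPM in control, with a log2 fold change of 0.70 (SE 0.39, edgeR adjusted p = 0.547).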

How the data were processed

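The files hold raw read counts per gene for 8 libraries, as deposited by the authors, with no normalization. Trimmomatic 0.36, STAR 2.5.2b, featureCounts of Subread 1.5.2 and the build BDGP6 are named per the submitters' processing notes. Not given in the sources used here are the release of the annotation, the strand option and how multiply matching reads were treated. The fit used edgeR 4.0.16 in R 4.3.3 (filterByExpr by group, TMM factors, quasi-likelihood F test without covariates, Benjamini-Hochberg adjustment over all 9846 tested genes, adjusted p under 0.05), after tests on simulated data. From the deposited counts, CPM and RPKM were derived with TMM scaling and the exon lengths of the files. SE was derived from the F statistic, and the common coefficient of variation was 0.500. The alternatives were DESeq2 1.42.0, limma-voom (limma 3.58.1), RLE factors, TMM with the 20 most abundant genes left out, 2 other low-count filters, the replicate number as a block, each library left out, and, added after the data were seen, 2 pairs of libraries left out. Cluster gaps of 10 and 50 kb were also tried.

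The genes and lists were chosen with earlier results of these data known. Of 197 list symbols, 190 were found. Named genes are those with an adjusted p under 0.05, the 15 with the highest mean RPKM, the 10 with the smallest unadjusted p, the expressed genes of a cluster with a changed gene, and changed or abundant list genes. A later annotation gave FlyBase identifiers for all 124 genes, and all 124 had the same span in it. No sequence is shown, since no sequence was used here.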

Additional observations from a re-analysis of the deposited data

Results flagged for a closer look

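A value was singled out where the highest or lowest of 4 libraries stood far from the other 3 by Dixon's ratio. Of 48 groups examined, 7 were singled out. The nominal rate of about 1 in 20 holds for independent, normally distributed values. These groups share libraries and RPKM was not put on a log scale, so the 7 cannot be judged against that rate. The largest was Pcp in 9G8 RNAi 3, at 31.0 RPKM, against 0.337 to 1.16 RPKM in the other 9G8 RNAi libraries. Cpr47Ef was high in 9G8 RNAi 3, at 1.75 RPKM against 0.0946 to 0.177 RPKM in the other 9G8 RNAi libraries, and in control 2, at 1.95 RPKM (1.945) against 0.270 to 0.489 RPKM in the other controls. Control 2 was also high for Cpr73D, at 1.10 RPKM against 0.404 to 0.453 RPKM in the other controls. Ccp84Ag was high in control 1, at 0.649 RPKM against 0.264 to 0.281 RPKM in the other controls. In 9G8 RNAi 4, Cpr49Ac stood at 0.368 RPKM against 0.0713 to 0.114 RPKM in the other 9G8 RNAi libraries, and CG13160, of the same locus, at 0.399 RPKM against 0.131 to 0.159 RPKM. The reasons for these 7 values were not tested.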

How the results depend on the processing

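The falls of Cpr49Aa and Cpr49Ac passed in all 17 alternatives, with log2 fold changes of -7.28 to -5.83 and -7.48 to -6.00 (leaving out 1 library: -7.14 to -5.83 and -7.26 to -6.13). Among all genes, 316 changed, against 523 with DESeq2, 141 with the replicate block, 162 to 504 when 1 library was left out, and 492 without 9G8 RNAi 4 and control 3. Of the 316, 31.0% were higher, against 41.5% with no low-count filter, 50.5% without 9G8 RNAi 1, 41.9% without 9G8 RNAi 1 and control 4, and 19.9% without 9G8 RNAi 4 and control 3. Cuticle protein genes changed were 2 to 4 when 1 library was left out, and 4 without 9G8 RNAi 4, alone or together with control 3, where Cpr67Fb was also lower and Cpr62Bc higher. Same-numbered libraries deviated with correlations of -0.593 to -0.018, and 0 of 4 correlated best with their own number. The counts thus gave no sign that the numbers pair samples, which so few libraries cannot exclude. Under the block the 2 falls were kept. The median log2 fold change of tested cuticle protein genes ran from -0.27 to 0.295 (the highest without control 2) when 1 library was left out. At a mean of at least 5 CPM, 9 genes were expressed in 9G8 RNAi and 8 in control, at 0.5 CPM 24 in 9G8 RNAi and 25 in control, and leaving out 1 library gave 17 to 19 in 9G8 RNAi and 15 to 20 in control. Gaps of 10 or 50 kb gave 16 clusters each. Leaving the 20 most abundant genes out of the scaling moved the median of all genes to 0.105, and no low-count filter to 0.111.

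Reversals of direction touched genes that never passed. They were Pcp (-0.64 with limma-voom, -1.69 with the replicate block), Cpr49Ab and Cpr66D without 9G8 RNAi 4 and control 3 (-0.15 and -0.16), Cpr73D with the block (0.0038), and Cpr62Bb and Cpr97Eb with the 20 genes left out (0.018 and 0.038) and with no filter (0.0030 and 0.0067). Leaving out 1 library gave log2 fold changes of -3.20 to 1.22 for Pcp, -0.079 to 0.36 for Cpr49Ab, -0.75 to 0.41 for Cpr62Ba, -0.27 to 0.10 for Cpr62Bb, -0.27 to 0.22 for Cpr97Eb, -2.43 to 0.52 for Cpr47Ef, -0.18 to 0.51 for Cpr66D and -0.27 to 0.35 for Cpr73D. The cause of these reversals was not tested. With no low-count filter, 118 of the 124 genes were tested and the same 2 passed as lower. In that setting 210 of all 16195 tested genes were lower and 149 higher. Depth limits the scarcer genes, and the 6 at 0 counts could not be tested.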

Other observations

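Among the 95 cuticle protein genes that the low-count filter removed, 2 were singled out after their values were seen. Cpr49Ah, at the far end of the Cpr49A cluster (2R, 12413962 to 12415170), held 18, 9, 8 and 3 counts in 9G8 RNAi libraries 1 to 4, against 2, 0, 0 and 4 counts in control libraries 1 to 4, or 0.157 to 0.440 RPKM in 9G8 RNAi and 0 to 0.121 RPKM in control. It was the only one of the 95 whose RPKM did not overlap between the genotypes. The share of such genes among all genes that the filter removed was not computed, so this has no background. Cpr62Bc, in the cluster of Cpr62Ba and Cpr62Bb, held 41, 32, 17 and 1 counts in 9G8 RNAi libraries 1 to 4, against 6, 3, 0 and 3 counts in control libraries 1 to 4. It entered the test and passed without 9G8 RNAi 4 (log2 fold change 2.81, SE 0.73, edgeR adjusted p = 0.0477) and without 9G8 RNAi 4 and control 3 (2.36, SE 0.61, edgeR adjusted p = 0.0408), so its call rests on the library left out. With all 8 libraries and no low-count filter, neither gene passed.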
